A study of Mus musculus with 9 samples.

Results

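The proline and acidic amino acid-rich basic leucine zipper (PAR bZIP) factors *Dbp*, *Tef* and *Hlf*, their repressing counterpart *Nfil3*, and 5 genes whose RNA follows the clock in liver, *Usp2*, *Upp2*, *Tspan4*, *Lonrf3* and *Wee1*, were followed in regenerating mouse liver. These 9 genes of 43346 in the deposited table were selected by name with their measured values in all 3 comparisons already known. Their values are therefore given as a description and no p is printed for any of them. All 9 passed the filter on low counts, which left 15024 genes for testing.

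RNA-Seq was performed on whole liver of WT male mice (strain label C57/BL6, 12 weeks old) in 3 groups of 3 libraries. All mice underwent 70% partial hepatectomy and received intraperitoneal injections from before surgery until euthanasia at 40 hours. Vehicle was normal saline, and NSC-87877 (NSC), an inhibitor of the tyrosine phosphatase SHP2 that also inhibits SHP1, was injected 2 times a day, each dose being 7.5 mg/kg. Baseline libraries came from the liver resected at surgery from vehicle-treated mice (0 hours), and the other groups were remnant liver 40 hours after surgery, from mice given vehicle or NSC. Resected liver of mice given NSC was not analysed here, and both 40-hour groups were compared with the same 3 baseline libraries. Between 23997363 and 42887589 reads were counted per library, and 3 counts, used as the detection floor, corresponded to 0.0751 to 0.117 CPM (read counts relative to library size, scaled by TMM factors). Hepatocyte markers dominated every library, with a summed level of 89700 to 126000 CPM over 6 genes. Most of this sum was *Alb* (75100 to 103000 CPM), which overlapped baseline in both 40-hour groups, as did *Apoa1*. In both groups the other 4 lay below baseline without overlap. Means at baseline, with vehicle and with NSC were 3710, 1560 and 970 CPM for *Tat* and 5660, 3820 and 2380 CPM for *Cps1*. They were 6590, 3850 and 3980 CPM for *Ttr* and 3280, 1870 and 1990 CPM for *Serpina1c*. The part of these falls in the levels of other genes was not tested. In such bulk samples fewer cells of a type and less RNA per cell cannot be told apart.

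The PAR bZIP factors are transcriptional activators that bind a palindromic element called the D-box, and the protein product of *Nfil3* (E4BP4) binds the same element and represses. *Dbp* is driven by CLOCK and BMAL1 (encoded by *Arntl*) through E-boxes, *Nfil3* is repressed by the REV-ERB receptors (*Nr1d1*, *Nr1d2*), and the activators and the repressor therefore peak at opposite times of day. In liver their targets include genes of drug and steroid metabolism. The clock also reaches the cell cycle through *Wee1*, whose kinase phosphorylates and holds back CDK1 before mitosis, and in mice entry into mitosis after hepatectomy depends on the time of day of surgery.

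Elements of these kinds were looked for as exact letters on both strands in the 250 bases before each RefSeq start (GRCm38.p6), in 11 promoters of 8 of the 9 genes. *Wee1* had no promoter under its name in the RefSeq table and was not searched. None held a D-box (TTATGTAA, its reverse complement TTACATAA, or the palindrome TTACGTAA), which 0.931% of all 32851 promoters of that length hold. An E-box (CACGTG) was found in 4 of the 11 promoters, against 6.02% of all promoters, and these belonged to 3 of the 8 genes, *Tef*, *Tspan4* and *Lonrf3*, against 6.86% of all genes. The element bound by ROR and REV-ERB receptors (TAGGTCA, reverse complement TGACCTA) was found in the 1 promoter of *Nfil3*, against 2.23% of all promoters. No match overlapped another. Stretches of 60 bases around the matches are shown, 5′ to 3′ on the strand of the gene and with the match in capitals, because they are all the matches found for the genes described here, 4 E-boxes and the receptor element of the repressor. The promoter of *Dbp*, whose RNA varied most of the 9 genes, held none of these letters. *Per3*, the gene whose profile over the 9 libraries was nearest to that of *Dbp*, is added because it was the gene with a D-box match among the 13 core clock genes with a promoter in the RefSeq table.
*Tef* promoter 1 (chr15:81802519-81802578, plus strand, match 127 to 122 bases before the start): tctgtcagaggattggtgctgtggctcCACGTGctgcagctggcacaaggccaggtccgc
*Tef* promoter 2 (chr15:81811249-81811308, plus strand, match 138 to 133 bases before the start): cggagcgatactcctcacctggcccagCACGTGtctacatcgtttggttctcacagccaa
*Nfil3* (chr13:52981040-52981099, minus strand, match 12 to 6 bases before the start): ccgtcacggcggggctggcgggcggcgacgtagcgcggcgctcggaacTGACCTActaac
*Tspan4* promoter 2 (chr7:141476302-141476361, plus strand, match 51 to 46 bases before the start): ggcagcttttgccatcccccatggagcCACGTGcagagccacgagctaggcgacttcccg
*Lonrf3* (chrX:36328337-36328396, plus strand, match 45 to 40 bases before the start): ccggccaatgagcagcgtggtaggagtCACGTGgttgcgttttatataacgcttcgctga
*Per3*, first match (chr4:151044837-151044896, minus strand, match 205 to 198 bases before the start): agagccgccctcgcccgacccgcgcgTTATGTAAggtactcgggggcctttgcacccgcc
*Per3*, second match (chr4:151044790-151044849, minus strand, match 158 to 151 bases before the start): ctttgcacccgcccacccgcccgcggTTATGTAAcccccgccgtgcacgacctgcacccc
A match describes these letters only, and no binding was measured.

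Baseline replicate 2 stood apart from the other 8 libraries in clock genes, so the log2 fold changes from baseline of the 9 genes, and the counts, medians and called genes of the lists, are given with and without it. Among 12699 genes with a mean of at least 1 CPM, it lay more than 2-fold above every other library in 63 genes (0.496%) and more than 2-fold below in 86 (0.677%), whereas the other libraries lay above in 3 to 41 genes. Of the 9 genes described here, 4 were among the 63, *Dbp* by 61.4-fold over the next library, *Tef* by 5.40-fold, *Usp2* by 5.10-fold and *Upp2* by 2.75-fold. The median absolute log2 difference between baseline replicates over the 9 genes was 0.286 between replicates 1 and 3, 1.46 between 1 and 2, and 1.72 between 2 and 3. Over all tested genes the same pairs differed by 0.199, 0.258 and 0.231. Per the study's methods, mice were kept in a 12-hour light-dark cycle and operated on in small groups so that surgery fell at a uniform time of that cycle. The time of day of each liver is not given in the sources used here, and its part in this difference was not tested. Since 40 hours leave a remainder of 16 hours after a whole day, time of day and time after hepatectomy cannot be told apart in comparisons with baseline.

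*Dbp*, the activator with the widest daily swing in liver, was near the low end of detection in all libraries but one. Its levels were 0.411, 81.0 and 1.29 CPM in baseline replicates 1, 2 and 3 (13, 2653 and 39 reads). They were 0.976, 1.09 and 0.554 CPM in vehicle-treated mice at 40 hours and 1.32, 1.15 and 1.1 CPM in NSC-treated mice. The baseline group enclosed both 40-hour groups, and the 3 NSC libraries lay just above the 3 vehicle libraries with 28 to 44 reads each. The fitted log2 fold change from baseline was -4.95 (SE 1.88) with vehicle and -4.53 (SE 1.84) with NSC. Without baseline replicate 2 these became 0.06 (SE 0.497) and 0.49 (SE 0.499), so the sign of both came from 1 library. *Dbp* overlaps *Sphk2* on the opposite strand by 689 bases, and whether the counting used strand is not given in the sources used here. *Sphk2* lay between 38.6 and 59.8 CPM at baseline and was not high in replicate 2 alone.

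*Tef*, a second activator of the same family, was expressed far more evenly. Baseline replicates 1 and 3 had 48.1 and 48.3 CPM and replicate 2 had 261 CPM. Vehicle-treated mice had 21.8, 30.4 and 19.9 CPM at 40 hours, and NSC-treated mice had 40.5, 32.0 and 34.9 CPM. The 3 groups did not overlap in any pair, with baseline highest, NSC in between and vehicle lowest. The log2 fold change from baseline with vehicle was -2.30 (SE 0.679), and -1.0 (SE 0.194) without baseline replicate 2. With NSC it was -1.73 (SE 0.665), and -0.43 (SE 0.194) without that library. NSC-treated livers were 1.49-fold above vehicle-treated livers (log2 fold change 0.57, SE 0.654), and the standard error was 0.176 when baseline replicate 2 did not enter the shared estimate of the spread.

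*Hlf*, the remaining activator, varied least of the PAR bZIP factors. It stood at 25.9, 40.6 and 25.5 CPM at baseline, at 16.6, 15.0 and 16.1 CPM with vehicle, and at 21, 17.8 and 23.0 CPM with NSC. The order of the groups was that of *Tef*, again with no overlap in any pair. *Hlf* was 1.93-fold lower than baseline with vehicle (log2 fold change -0.95, SE 0.191) and 1.49-fold lower with NSC (-0.58, SE 0.189), or 1.62-fold and 1.25-fold without baseline replicate 2. Between NSC and vehicle the log2 fold change was 0.37 (SE 0.190), or 1.29-fold higher with NSC.

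*Nfil3*, the repressor at the D-box, ran opposite to the activators in baseline replicate 2. It had 149 and 124 CPM in baseline replicates 1 and 3 but 39.6 CPM in replicate 2. Levels at 40 hours were 62.1, 77.9 and 62.6 CPM in vehicle-treated mice and 38.5, 39.1 and 35.8 CPM in NSC-treated mice. All 3 NSC libraries thus lay below all other libraries, with baseline replicate 2 only slightly above the highest of them. The log2 fold change from baseline was -0.63 (SE 0.393) with vehicle and -1.47 (SE 0.401) with NSC, and it was -1.02 (SE 0.164) and -1.86 (SE 0.165) without baseline replicate 2. Between NSC and vehicle the log2 fold change was -0.84 (SE 0.396), 1.79-fold lower with NSC. That standard error was 0.150 without baseline replicate 2 and 0.154 when only the 6 libraries compared were fitted, while the fold change stayed at -0.84. *Nfil3* is also used by NK and innate lymphoid cells, and the summed level of 5 markers of these cells was at most 1.74 CPM in any library. Summed neutrophil markers were 1.83 to 6.67 CPM at baseline, 7.97 to 15.5 CPM with vehicle and 11.0 to 17.9 CPM with NSC, and summed macrophage and Kupffer cell markers were 95.6 to 142, 78.1 to 158 and 152 to 271 CPM. Summed neutrophil markers were thus higher in both 40-hour groups, and the macrophage sum reached its highest value with NSC. The macrophage markers did not move together. *Marco* had 2.62 to 5.07 CPM at baseline, 17.0 to 52.7 CPM with vehicle and 38.4 to 108 CPM with NSC. *Clec4f* had 56.2 to 90.0, 37.5 to 60.7 and 67.4 to 82.4 CPM. The part of these cells in the level of *Nfil3* was not tested.

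**Figure D1:**
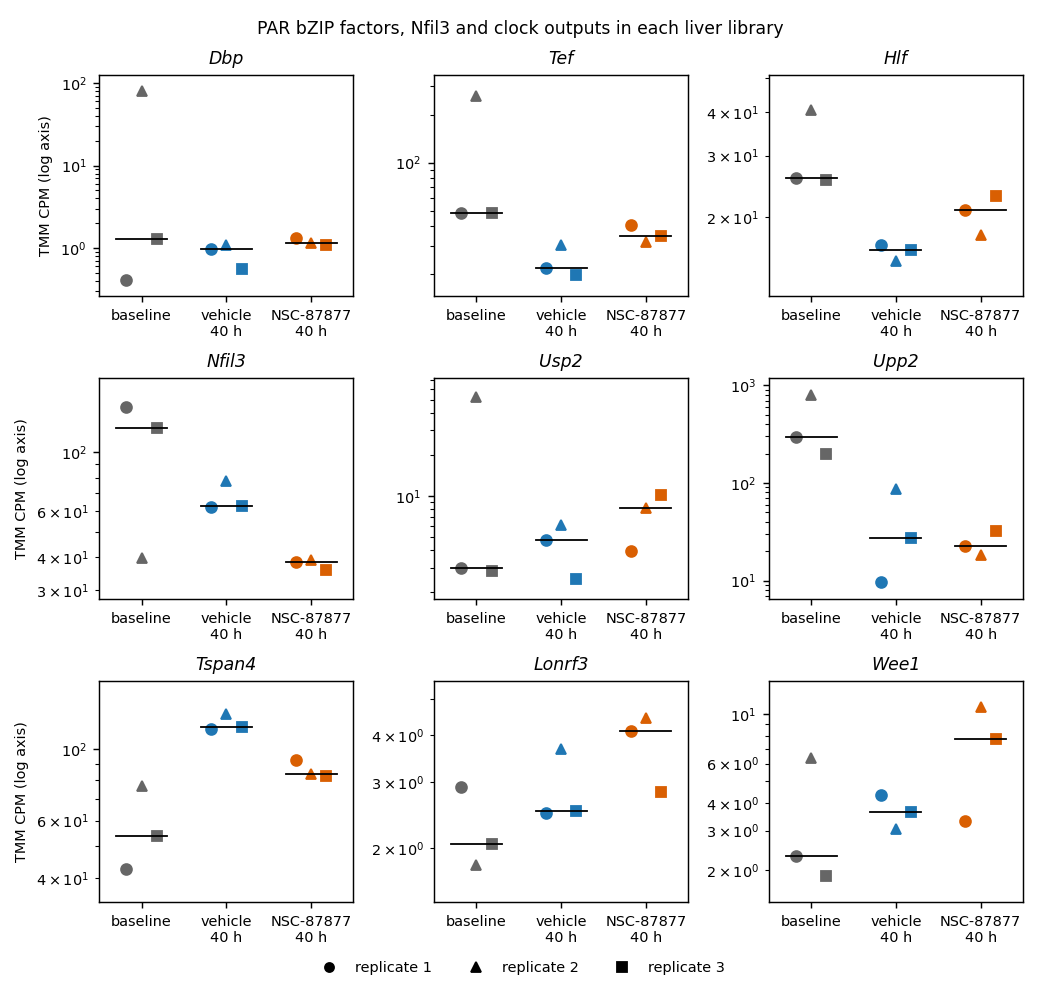
Level of each of the 9 genes in each library (TMM-scaled CPM, log axis with its own range in each panel), by group, with replicates marked by shape and the group median as a line. Baseline replicate 2 (triangle) sits far above the other baseline livers for *Dbp*, *Tef* and *Usp2* and below them for *Nfil3*, and the 3 NSC libraries sit between 35.8 and 39.1 CPM for *Nfil3*, below the 3 vehicle libraries.

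Repressor and activators were set side by side per length, as a share of the summed FPKM of *Dbp*, *Tef*, *Hlf* and *Nfil3*, a measure added after the values had been seen. *Nfil3* made up 87.9%, 22.7% and 85.5% of the sum in baseline replicates 1, 2 and 3. Its share was 84.6%, 85.6% and 85.7% in vehicle-treated livers at 40 hours and 68.5%, 73.0% and 68.1% in NSC-treated livers. The RNA of the repressor exceeded the summed RNA of the activators in 8 of 9 libraries, 5.48- to 6.02-fold with vehicle and 2.14- to 2.70-fold with NSC. The lower share with NSC came with both terms, since the summed activators had 4.98 to 5.90 FPKM with vehicle and 7.29 to 9.65 FPKM with NSC. The summed activators were at 9.72 and 10.1 FPKM in baseline replicates 1 and 3, above every 40-hour library. *Nfil3* itself had 19.8 ± 1.09 FPKM (SD, n = 3) in NSC-treated livers against 32.3 ± 2.31 FPKM with vehicle. Most of the activator RNA was *Tef* and *Hlf*, and *Dbp* held 0.166% to 1.62% of the sum outside baseline replicate 2, where it held 31.9%.

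**Figure D2:**
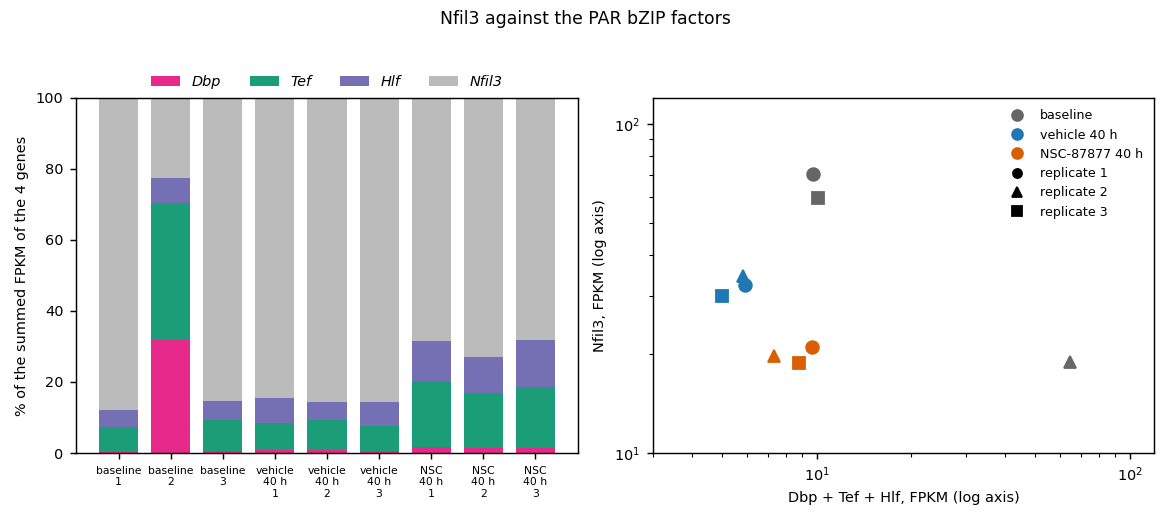
Left, share of each of *Dbp*, *Tef*, *Hlf* and *Nfil3* in their summed FPKM, 1 bar per library. Right, *Nfil3* FPKM against the summed FPKM of the other 3 genes, both on log axes, colored by group and shaped by replicate. Vehicle-treated livers at 40 hours keep *Nfil3* at 84.6% to 85.7%, NSC-treated livers at 68.1% to 73.0%, and baseline replicate 2 stands alone at 22.7%.

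Among clock outputs, *Usp2*, a ubiquitin-specific protease, had the profile of *Dbp* at baseline. It was at 3.00, 52.1 and 2.84 CPM in baseline replicates 1, 2 and 3, at 4.78, 6.17 and 2.47 CPM with vehicle and at 3.93, 8.15 and 10.2 CPM with NSC. The 40-hour groups overlapped, the vehicle group overlapped baseline with or without replicate 2, and the NSC group overlapped baseline through replicate 2 alone. The log2 fold changes from baseline were -2.10 (SE 1.19) with vehicle and -1.38 (SE 1.16) with NSC, and both changed sign, to 0.62 (SE 0.439) and 1.34 (SE 0.447), without that library. *Rnf26*, whose span covers that of *Usp2* on the other strand, had 9.89 to 13.2 CPM at baseline, 17.0 to 23.6 CPM with vehicle and 11.0 to 28.8 CPM with NSC. This overlap is between whole gene spans, and whether exons of both genes share reads was not tested.

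*Upp2*, a uridine phosphorylase of liver, showed the largest difference from baseline that did not rest on replicate 2. It had 293, 805 and 199 CPM at baseline, 9.68, 86.1 and 27.6 CPM with vehicle and 22.7, 18.3 and 31.9 CPM with NSC. Every 40-hour library lay below every baseline library. *Upp2* was 10.5-fold lower with vehicle (log2 fold change -3.39, SE 0.899) and 17.8-fold lower with NSC (-4.15, SE 0.933). Without baseline replicate 2 it was 5.96-fold lower (-2.58, SE 0.843) and 10.1-fold lower (-3.34, SE 0.864). Vehicle-treated livers spanned a wide range, with replicate 2 highest, and the NSC-treated livers fell within it. The log2 fold change between NSC and vehicle was -0.76 (SE 0.832), and it was 0.39 without vehicle replicate 2.

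*Tspan4*, a tetraspanin of the cell membrane, was the gene of the 9 with the clearest higher level after hepatectomy. Its levels were 42.7, 76.6 and 53.7 CPM at baseline, 115, 128 and 117 CPM with vehicle and 92.4, 83.5 and 82.3 CPM with NSC. No 2 groups overlapped, with vehicle highest and NSC in between. It was 2.08-fold above baseline with vehicle (log2 fold change 1.06, SE 0.191) and 1.49-fold with NSC (0.58, SE 0.190), or 2.49-fold and 1.79-fold without baseline replicate 2. NSC-treated livers were 1.39-fold below vehicle-treated livers (log2 fold change -0.48, SE 0.189). *Chid1*, which shares 292 bases with *Tspan4* on the opposite strand, had the same order of groups, 36.2 to 45.2 CPM at baseline, 68.0 to 85.9 CPM with vehicle and 44.7 to 53.0 CPM with NSC, and the part of shared reads was not tested.

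*Lonrf3*, a RING finger protein gene, was lowly expressed and its groups overlapped throughout. It ranged from 1.80 to 2.91 CPM at baseline, from 2.48 to 3.68 CPM with vehicle and from 2.82 to 4.45 CPM with NSC. Baseline replicate 2 was the lowest of all 9 libraries. Its log2 fold changes were 0.36 (SE 0.291) and 0.75 (SE 0.291) from baseline, 0.23 (SE 0.324) and 0.62 (SE 0.326) without that library, and 0.39 (SE 0.287) between NSC and vehicle.

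*Wee1* had 2.31, 6.35 and 1.88 CPM at baseline, 4.33, 3.06 and 3.62 CPM in vehicle-treated livers and 3.30, 10.8 and 7.71 CPM in NSC-treated livers. It was thus high in baseline replicate 2 and in NSC replicates 2 and 3, while NSC replicate 1 lay among the vehicle libraries. The log2 fold change from baseline was 0.06 (SE 0.508) with vehicle and 1.04 (SE 0.507) with NSC, and it was 0.81 (SE 0.427) and 1.79 (SE 0.438) without baseline replicate 2. Between NSC and vehicle it was 0.98 (SE 0.506), with overlapping groups. *Cdk1*, the target of the kinase, had 1.42, 1.22 and 1.19 CPM at baseline, 58.1, 56.8 and 48.8 CPM with vehicle and 23.8, 166 and 184 CPM with NSC. High *Wee1* thus occurred both with *Cdk1* at the low baseline level, in baseline replicate 2, and with *Cdk1* at its highest. Per length, *Cdk1* RNA was 0.108 to 0.356 times that of *Wee1* at baseline, 7.57 to 10.5 times with vehicle and 4.07 to 13.4 times with NSC.

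**Figure D3:**
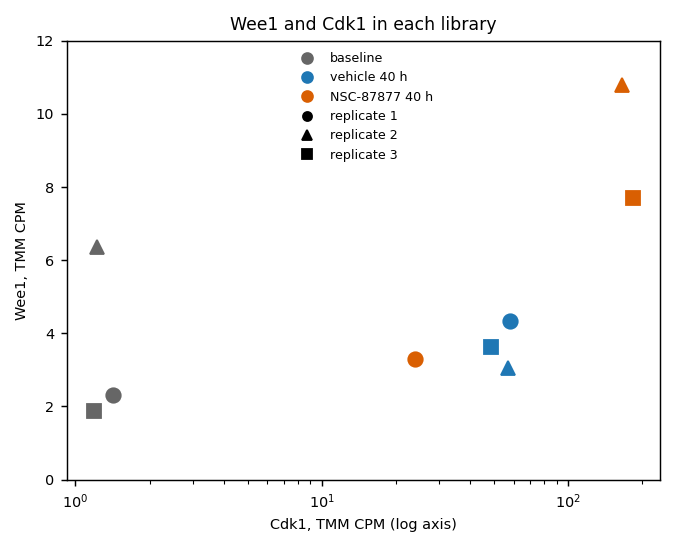
*Wee1* (linear axis) against *Cdk1* (log axis) in each library, TMM-scaled CPM, colored by group and shaped by replicate. The 3 baseline livers share *Cdk1* levels of 1.19 to 1.42 CPM but differ in *Wee1* (1.88 to 6.35 CPM), and NSC replicates 2 and 3 are highest in both.

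The other genes around CDK1, cyclins and the kinases and phosphatases that act on it, were compared as a list of 14 genes, of which 13 were tested. With either treatment 11 rose and 1 fell from baseline (edgeR quasi-likelihood test, Benjamini-Hochberg adjusted p under 0.05), and the median log2 fold change of the list was 3.09 with vehicle and 3.65 with NSC, against 0.01 over all tested genes in either comparison. Of all tested genes, 23.7% were called with vehicle and 34.7% with NSC. Without baseline replicate 2 the list counts were 11 higher and 0 lower with vehicle and 11 higher and 1 lower with NSC, with medians of 3.10 and 3.56. *Cdk1* rose with a log2 fold change of 5.41 (SE 0.782, edgeR adjusted p = 0.00303) with vehicle and 6.60 (SE 0.816, edgeR adjusted p = 0.00107) with NSC. *Ccnb1*, the mitotic cyclin B1, rose from 3, 7 and 5 reads in the baseline libraries to 25.4 to 30.0 CPM with vehicle and to 8.31, 115 and 108 CPM with NSC (edgeR adjusted p = 0.00542 and 0.00196). *Plk1*, a mitotic kinase that promotes degradation of the WEE1 protein, rose by a log2 fold change of 6.20 (edgeR adjusted p = 0.00929) and 6.80 (edgeR adjusted p = 0.00455). *Cdc25c*, which removes the phosphate WEE1 adds, had at most 1 read per baseline library and 2.99 to 5.43 CPM with vehicle and 1.29 to 15.3 CPM with NSC (edgeR adjusted p = 0.00581 and 0.00186). *Btrc*, a subunit of a ubiquitin ligase that marks WEE1 for degradation, was the gene that fell, by 0.55 with vehicle (edgeR adjusted p = 0.0395) and by 0.82 with NSC (edgeR adjusted p = 0.00418), and it was not called with vehicle without baseline replicate 2 (edgeR adjusted p = 0.0592). Every other gene named here was still called in both comparisons without that library, *Cdk1* with log2 fold changes of 5.38 and 6.57 and *Plk1* with 5.80 and 6.4. No gene of the list was called between NSC and vehicle by edgeR. *Chek1* and *Chek2*, the checkpoint kinases, were the 2 at an unadjusted p under 0.05, beside 2929 of 15024 tested genes. DESeq2 called 1, *Chek1*.

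Of the summed markers of other cells of the liver, some differed between the groups and others overlapped. Summed cholangiocyte markers (5 genes) were 37.8 to 40.6 CPM at baseline, 76.0 to 114 CPM with vehicle and 79.0 to 121 CPM with NSC. Most of this sum was *Spp1* (31.2 to 36.3, 60.9 to 95.9 and 70.3 to 110 CPM). The means of *Krt19*, *Krt7* and *Sox9* were above baseline in both 40-hour groups but lower with NSC than with vehicle. *Epcam* went the other way with vehicle (0.648 to 0.923 CPM against 0.924 to 1.23 CPM at baseline) and overlapped baseline with NSC. Summed erythroid markers (4 genes) were 207 to 301 CPM at baseline, 91.3 to 155 CPM with vehicle and 106 to 202 CPM with NSC. Of these, *Alas2* had 123 to 166, 31.4 to 52.3 and 23.8 to 77.3 CPM. The globin genes overlapped baseline in both 40-hour groups, *Hbb-bs* with 51.0 to 92.8, 42.4 to 77.4 and 57.7 to 92.9 CPM. Stellate cell markers (5 genes) were 170.0 to 210.0, 232 to 268 and 201 to 318 CPM. Most of this sum was *Dcn* (104 to 135, 164 to 175 and 149 to 244 CPM). *Pdgfrb* was above baseline with vehicle only (7.82 to 8.64, 12.4 to 17.4 and 6.42 to 8.37 CPM), and *Lrat*, *Reln* and *Hand2* overlapped baseline in both 40-hour groups. Sinusoidal endothelial markers (5 genes) were 157 to 165, 98.4 to 160 and 112 to 200 CPM, and both 40-hour sums overlapped baseline. Of these genes only *Kdr* did not overlap baseline with vehicle (15.4 to 26.3 against 36.8 to 39.2 CPM), and it overlapped baseline with NSC. The part of these cells in the values of the 9 genes was not tested.

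Counts of calls among the 9 genes are given with the share of all genes called, and nothing is read from them because the genes were chosen on these comparisons. With vehicle, 4 of 9 passed an adjusted p of 0.05 (1 higher, 3 lower) where 23.7% of all genes did, 12.7% higher and 11.0% lower. With NSC, 4 of 9 passed (1 higher, 3 lower) where 34.7% of all genes did, 18.2% higher and 16.5% lower. Without baseline replicate 2 the counts were 4 of 9 beside 18.9% of genes and 5 of 9 beside 28.7%. When only the 2 groups compared were fitted, 2 of 9 passed in each comparison, where 4474 genes were called with vehicle and 4617 with NSC. Between NSC and vehicle edgeR called none of the 9, where 0.0399% of all genes (6) were called. Of the 9, 1 had an unadjusted p under 0.05, beside 2929 of 15024 tested genes. Without baseline replicate 2 there were 5, beside 2906 of 15331 tested genes. That library was left out for standing apart in clock genes, some of these 9 included, and nothing is read from the larger count. DESeq2 called none of the 8 to which it gave an adjusted p. The levels of 5 genes did not overlap between the NSC and vehicle groups, *Dbp*, *Tef* and *Hlf* higher with NSC and *Nfil3* and *Tspan4* lower, where 22.5% of all tested genes did not overlap. From baseline, 4 did not overlap with vehicle and 5 with NSC, where 46.3% and 47.1% of all tested genes did not. Without baseline replicate 2 these were 6 and 7, where 56.9% and 55.8% of all tested genes did not overlap.

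**Figure D4:**
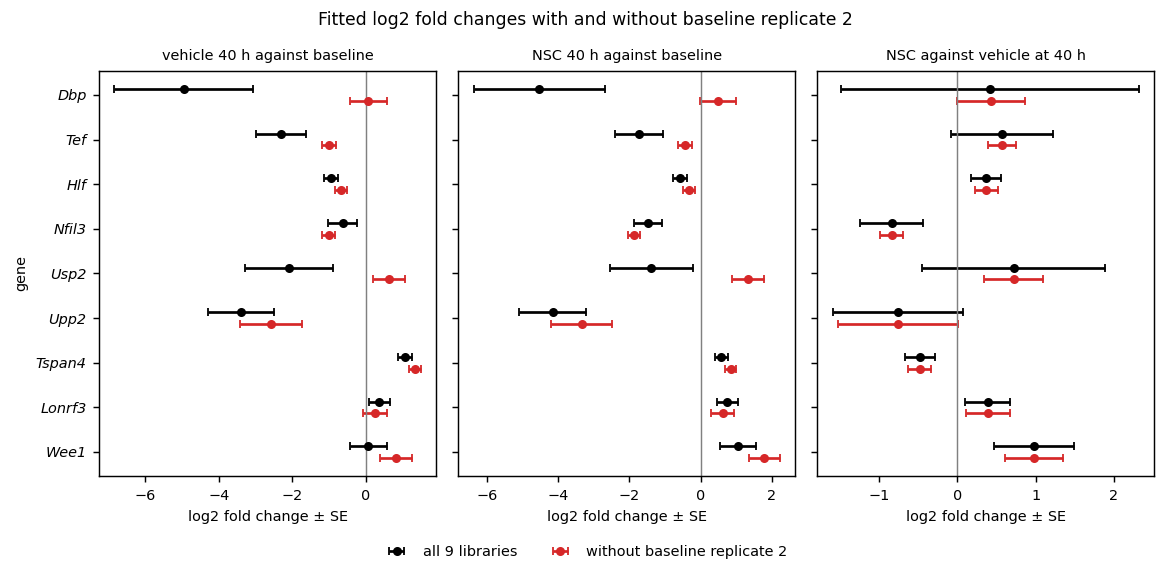
Fitted log2 fold change and its standard error for each gene in the 3 comparisons (1 panel each, with its own range), with all 9 libraries (black) and without baseline replicate 2 (red). *Dbp* and *Usp2* cross 0 in both comparisons with baseline when that library is left out, while the NSC against vehicle values keep their place and have smaller standard errors for *Dbp*, *Tef*, *Nfil3* and *Usp2*.

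The core clock, a list of 18 genes, showed the same library standing apart. *Per3* and *Ciart* had 66.6 and 30.6 CPM in baseline replicate 2, where the other 8 libraries reached at most 4.82 and 1.93 CPM. *Per2*, another period gene, had 35.1 CPM there and 5.09 to 8.08 CPM elsewhere. On the opposite side, *Arntl*, which encodes BMAL1, had 1.65 CPM in baseline replicate 2 and 21.6 to 35.5 CPM elsewhere, and *Npas2*, a partner of BMAL1 named after its values were seen, had 0.0611 CPM against 3.36 to 8.51 CPM. *Nr1d1*, which encodes REV-ERB alpha, did not follow this split, with 62.0, 62.3 and 30.9 CPM at baseline. Of the list, 4 genes fell and none rose with vehicle, and 5 fell and none rose with NSC (edgeR adjusted p under 0.05). These counts stand beside 23.7% and 34.7% of all tested genes called. The median log2 fold change was -0.84 and -0.87, and -0.45 and -0.57 without baseline replicate 2. Without that library the counts were 2 lower with vehicle, and 5 lower and 1 higher (*Clock*) with NSC.

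The genes of the clock list that fell included *Nr1d1*, with log2 fold changes of -2.45 (SE 0.653, edgeR adjusted p = 0.0325) with vehicle and -2.57 (SE 0.659, edgeR adjusted p = 0.0205) with NSC. Without baseline replicate 2 the values were -2.29 and -2.42 and neither call held (edgeR adjusted p = 0.0874 and 0.0598). *Cry2*, a repressor of CLOCK and BMAL1, fell with -1.62 (edgeR adjusted p = 0.000869) and -1.76 (edgeR adjusted p = 0.000371), and both calls held without that library (-1.26 and -1.39, edgeR adjusted p = 0.00100 and 0.000414). *Nr1d2*, which encodes REV-ERB beta, fell with vehicle (-1.77, edgeR adjusted p = 0.0428, and -1.01 with an edgeR adjusted p = 0.0503 without baseline replicate 2) and *Per1* fell with NSC (-2.24, edgeR adjusted p = 0.00197, and -1.96 with an edgeR adjusted p = 0.00439 without it). *Bhlhe40* fell with NSC (-1.37, edgeR adjusted p = 0.0288, and -1.17 with an edgeR adjusted p = 0.0896 without it).

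Between NSC and vehicle no core clock gene was called by edgeR. *Per1* and *Nr1d2* were among the 3 at an unadjusted p under 0.05, beside 2929 of 15024 tested genes. DESeq2 called 1, *Per1*. *Nr1d2* had 29.2, 36.8 and 18.7 CPM with NSC and 13.4, 14.5 and 8.86 CPM with vehicle, a log2 fold change of 1.2 (SE 0.514, edgeR adjusted p = 0.252, and 0.101 without baseline replicate 2). *Per1* had 7.50, 8.59 and 10.5 CPM with NSC and 23.7, 28.1 and 10.6 CPM with vehicle (log2 fold change -1.23, SE 0.365, edgeR adjusted p = 0.134). *Per3* had 3.75, 4.82 and 3.17 CPM with NSC and 1.78, 2.85 and 1.62 CPM with vehicle (log2 fold change 0.90, SE 1.27, edgeR adjusted p = 0.732). These 3 genes and *Npas2* (3.36 to 4.34 CPM with NSC, 5.73 to 8.38 CPM with vehicle) were among the 5 of 18 clock genes whose levels did not overlap between the treatments, 3 higher and 2 lower with NSC, beside 22.5% of all tested genes. *Arntl* had 21.6 to 25.7 CPM with NSC and 24.7 to 27.7 CPM with vehicle.

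**Figure D5:**
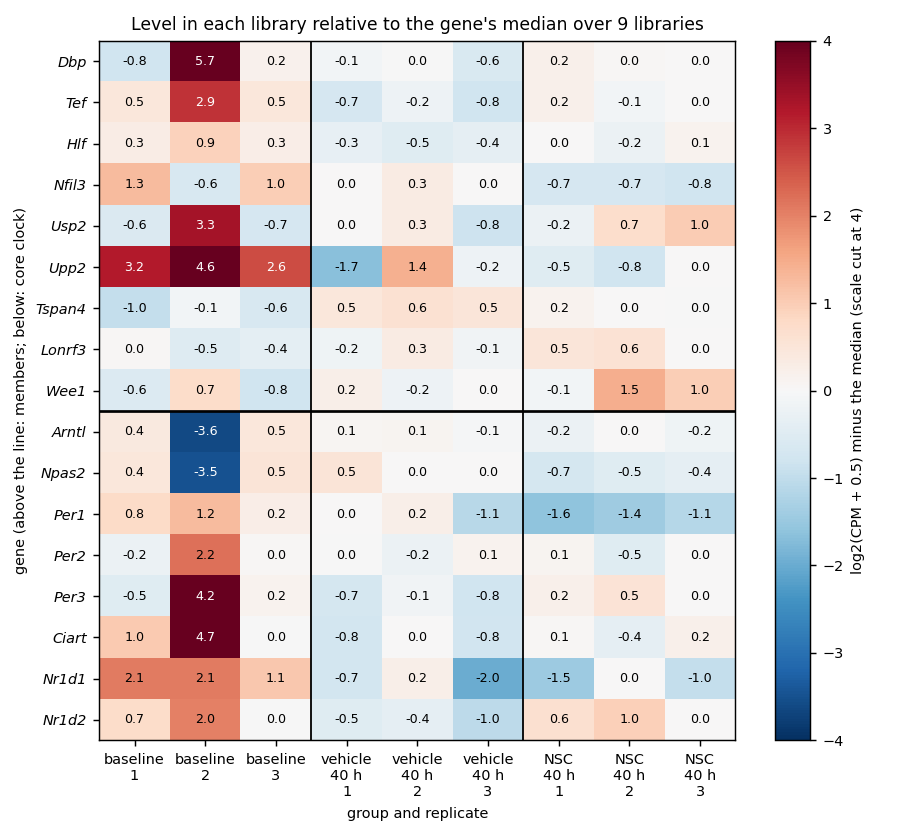
Level of the 9 genes (above the line) and of 8 core clock genes (below it) in each library, as log2(CPM + 0.5) minus the median of the gene over the 9 libraries, with each value printed and the color scale cut at 4. Baseline replicate 2 is the only column in which *Dbp*, *Usp2*, *Per3* and *Ciart* are more than 3 above their median, and *Arntl* and *Npas2* more than 3 below it.

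Of 12 known or likely liver targets of the PAR bZIP factors, genes of drug and lipid metabolism, 5 fell and none rose with vehicle, and 4 fell and none rose with NSC (edgeR adjusted p under 0.05). The share of all tested genes called was 23.7% and 34.7%, so the count with NSC was near that share. The median log2 fold change was -1.02 with vehicle and -1.21 with NSC, and -0.77 and -0.93 without baseline replicate 2. Without that library 2 fell in each comparison, *Cyp2b10* and *Cyp2a5* with vehicle and *Nr1i3* and *Por* with NSC.

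*Cyp2b10*, a drug-metabolizing cytochrome P450, fell from at least 67.6 CPM in each baseline library to 1.83, 14.6 and 7.31 CPM with vehicle (log2 fold change -3.43, edgeR adjusted p = 0.0146, and -3.41 with an edgeR adjusted p = 0.0411 without baseline replicate 2). It had 10.9, 30.3 and 28.0 CPM with NSC (-1.89, edgeR adjusted p = 0.0695, and -1.87 with an edgeR adjusted p = 0.142 without it). *Cyp2a5*, a coumarin hydroxylase, fell with log2 fold changes of -2.85 with vehicle (edgeR adjusted p = 0.00756) and -1.84 with NSC (edgeR adjusted p = 0.0276), which were -2.46 (edgeR adjusted p = 0.0219) and -1.45 (edgeR adjusted p = 0.0866) without that library. Its near-identical neighbor *Cyp2a4* fell as well (-2.07 and -2.30, edgeR adjusted p = 0.0384 and 0.0208), but neither call held without that library (-1.48 and -1.70, edgeR adjusted p = 0.129 and 0.0729), and the split of reads between these paralogs is uncertain. *Nr1i3*, which encodes the constitutive androstane receptor, fell with -0.98 with vehicle (edgeR adjusted p = 0.0329, and -0.85 with an edgeR adjusted p = 0.0949 without that library) and with -1.22 with NSC (edgeR adjusted p = 0.00871, and -1.09 with an edgeR adjusted p = 0.0299 without it). *Ppara*, a nuclear receptor of fatty acid metabolism, fell with vehicle (-1.07, edgeR adjusted p = 0.0481, and -0.68 with an edgeR adjusted p = 0.123 without it). *Por*, the electron donor of cytochromes P450, fell with NSC (-1.5, edgeR adjusted p = 0.0240, and -0.87 with an edgeR adjusted p = 0.0425 without it). No gene of the list was called between NSC and vehicle by edgeR or DESeq2, and none had an unadjusted p under 0.05 in edgeR.

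Of 8 other rhythmic genes of liver, 2 rose and 2 fell with vehicle, and 1 rose and 1 fell with NSC, beside 23.7% and 34.7% of all tested genes called. Without baseline replicate 2, 2 rose and 2 fell with vehicle, and 2 rose and 1 fell with NSC. The median log2 fold change was -0.78 and -0.72, and -0.47 and -0.43 without that library. *Gys2*, the liver glycogen synthase, fell with vehicle (-1.36, edgeR adjusted p = 0.000813) and NSC (-0.86, edgeR adjusted p = 0.00630), with -1.15 and -0.65 without that library. *Avpr1a*, the vasopressin receptor of hepatocytes, rose with log2 fold changes of 1.25 (edgeR adjusted p = 0.0187) and 1.03 (edgeR adjusted p = 0.0305), with 0.90 and 0.68 without it. *Cdkn1a*, which encodes the cell cycle inhibitor p21, rose with vehicle (2.00, edgeR adjusted p = 0.0295, and 1.58 without it), and *Nampt*, which makes NAD precursors, fell with vehicle (-1.24, edgeR adjusted p = 0.00417, and -0.87 without it). All these calls held without baseline replicate 2, when *Cdkn1a* was also called with NSC. Between NSC and vehicle edgeR and DESeq2 called none of the 8. In edgeR 2, *Gys2* and *Nampt*, had an unadjusted p under 0.05, beside 2929 of 15024 tested genes.

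The genes most like *Dbp*, *Nfil3* and *Wee1* were found by the root mean square difference between log2 CPM profiles over the 9 libraries, each centered on its own mean. Nearest to *Dbp* were *Per3* (0.68), *Ciart* (1.1), *Bhlhe41* (1.28), *A930033H14Rik* (1.31) and *Per2* (1.37), all highest in baseline replicate 2. Among the nearest to *Nfil3* were *Abtb2* (0.25), *Mdk* (0.28), *Agxt* (0.31) and *Cbs* (0.31). *Agxt*, an enzyme of glyoxylate metabolism, shows the shape, with 470, 237 and 414 CPM at baseline, 190, 267 and 194 CPM with vehicle and 110, 147 and 150 CPM with NSC. Nearest to *Wee1* were *Amd-ps3* (0.30), *Tcea1-ps1* (0.31), *Zfp763* (0.32), *Tmsb15b1* (0.35) and *Aim1* (0.35), of which the first 2 are named as pseudogenes and share sequence with other genes. *Bhlhe41*, *Ciart*, *Mdk* and *Amd-ps3* came near the detection floor, with lowest levels of 0.0751, 0.185, 0.15 and 0.099 CPM. Their likeness thus rests on few reads, for *Ciart* 5 to 61 outside baseline replicate 2.

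Levels per length were ordered by FPKM within each group. With vehicle at 40 hours *Tspan4* was highest (53.5 ± 1.72 FPKM, SD, n = 3), then *Nfil3* (32.3 ± 2.31), *Upp2* (5.41 ± 4.97), *Tef* (2.96 ± 0.513), *Hlf* (2.33 ± 0.298), *Wee1* (1.86 ± 0.470), *Usp2* (0.901 ± 0.352), *Lonrf3* (0.731 ± 0.122) and *Dbp* (0.288 ± 0.0921). Of the 8 neighboring pairs in that order 4 overlapped, *Upp2* with *Tef*, *Tef* with *Hlf*, *Hlf* with *Wee1*, and *Usp2* with *Lonrf3*. With NSC the top 2 and the last 3 genes were the same, and 4 of 8 neighboring pairs overlapped, among them *Tef* (4.86 ± 0.769 FPKM) with *Wee1* (3.93 ± 1.92 FPKM). At baseline *Upp2* was highest (59.1 ± 44.6 FPKM) and 7 of 8 neighboring pairs overlapped, all but *Wee1* with *Lonrf3*. *Dbp* spanned 0.134 to 26.5 FPKM there.

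In the deposited table *Dbp* (chr7:45705088-45710155) and *Wee1* (chr7:110122350-110142112) lie on chromosome 7 with *Tspan4* (chr7:141475240-141493427), and *Tef* on 15 (chr15:81802421-81826861). *Hlf* is at chr11:90336536-90390895, *Nfil3* at chr13:52967209-52981073, *Usp2* at chr9:44067021-44095627, *Upp2* at chr2:58567298-58792971 and *Lonrf3* at chrX:36328353-36362341. Counts were taken per gene over exons, so these spans do not tell which transcript was measured. Of the 9 positions 6 equal those of the mouse GENCODE M21 annotation, and those of *Dbp*, *Tef* and *Wee1* differ from it.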

How the data were processed

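Per the labels and the study's methods, RNA of whole liver was made into TruSeq Stranded mRNA libraries, and the authors aligned reads with STAR 2.6.1 and assigned them to genes with featureCounts of Subread 1.5.1. The build named in the processing notes is hg38, whereas the rows carry mouse Ensembl identifiers. The authors deposited raw counts per gene without normalization, and the deposited FPKM values divide them by gene length and library total. Groups were taken from the sample titles. The labels do not say that replicates are separate animals, while the paper describes 3 biological replicates in each group. SEs and p-values measure the spread between these libraries.

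The counts were tested with edgeR 4.0.16 under R 4.3.3 (TMM, filterByExpr, 1 robust quasi-likelihood fit of 9 libraries with condition as the only term, Benjamini-Hochberg adjustment over 15024 genes, threshold 0.05). The procedure was tested on simulated data. CPM are counts scaled by TMM factors. The 9 genes and all lists were chosen with earlier results of these data known. Genes named from a list were up to 4 past the threshold with the largest log2 fold change in each comparison, clock genes followed in every library, and the 5 genes most like each of *Dbp*, *Nfil3* and *Wee1*. Of 92 listed genes 2 were matched by identifier. Alternatives were RLE factors, library size only, DESeq2 1.42.0, all genes with at least 1 count, a fit of the 2 groups compared alone, a block for the replicate number, an added minimum absolute log2 fold change of 1.5, and each library left out. A planned comparison of protein sequences was not run, and some genes that the naming rule gives are not reported here. Markers of 8 cell types were summed per library. Promoters were searched in Python 3.11.15 with pandas 2.3.3.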

Additional observations from a re-analysis of the deposited data

How the results depend on the processing

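Of 405 values of the 9 genes under alternatives, 391 moved by less than the spread between replicates. Leaving out baseline replicate 2 moved 12 of 27 and leaving out vehicle replicate 2 moved 2. Signs changed for *Dbp* (to 0.06 and 0.49) and *Usp2* (to 0.62 and 1.34) from baseline without baseline replicate 2, and for *Upp2* between NSC and vehicle (to 0.39) without vehicle replicate 2. *Wee1* with vehicle changed sign from 0.06 to -0.17, -0.23 and -0.07 without baseline replicate 1, baseline replicate 3 and vehicle replicate 1. Calls from baseline numbered 3564 with vehicle and 5207 with NSC, 1085 and 1222 at an absolute log2 fold change over 1.5, and 2285 to 4538 and 3604 to 5234 with 1 library left out, the lowest with vehicle being without baseline replicate 3 (2329 without baseline replicate 1, 2367 without vehicle replicate 1). Calls between NSC and vehicle numbered 6, and 1 with library size only, 667 with DESeq2, 221 with all genes of at least 1 count, 3 over the larger fold change and 0 to 994 with 1 library left out. They were 994 without NSC replicate 1, 111 without vehicle replicate 3, 3 without baseline replicate 2, 1 without baseline replicate 1 or vehicle replicate 1, and 0 without vehicle replicate 2, NSC replicate 2 or NSC replicate 3. None of the 9 genes was called there under any of these.

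Core clock calls were 4 with vehicle (7 with DESeq2, 2 with all genes of at least 1 count, 2 to 7 with 1 library left out), 5 with NSC (8 with DESeq2, 3 over the larger fold change, 3 to 7) and 0 between treatments (1 with DESeq2, 0 to 1). The 7 came without baseline replicate 3, and 2 without baseline replicate 1, baseline replicate 2 or vehicle replicate 1. With NSC the 3 came without NSC replicate 3. Between treatments the 1 came without vehicle replicate 3. Calls of PAR bZIP targets were 5 with vehicle (3 with library size only, 2 with all genes of at least 1 count, 3 over the larger fold change, 2 to 5 with 1 library left out), 4 with NSC (7 with DESeq2, 2 with all genes of at least 1 count, 2 to 5) and 0 between treatments (0 to 1, the 1 without NSC replicate 1). With vehicle 2 or 3 were called without baseline replicate 2, baseline replicate 3 or any 1 vehicle replicate, and with NSC 2 without baseline replicate 2 or NSC replicate 2. The cause was not tested. Libraries with the same replicate number correlated in their deviations by -0.0479 to 0.134 and not every library correlated best with its own number, so the numbers were not taken to pair them. Per the paper, tissue resected at surgery served as baseline, so baseline and 40-hour vehicle libraries may share mice. The sources used here do not say so, and the main fit treated these libraries as independent. The replicate block changed the calls between NSC and vehicle from 6 to 11 and no other count by more than 1.5 times. With the block *Dbp* with vehicle had a log2 fold change of -3.24 (SE 2.16). *Tef* with vehicle (-1.98, SE 0.626) and *Nfil3* with NSC (-1.38, SE 0.467) were no longer called. *Dbp*, *Wee1*, *Usp2* and *Lonrf3* rest on few reads, 13 to 44 for *Dbp* outside baseline replicate 2.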

Other observations

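Other genes that stood apart in baseline replicate 2 were found after the values had been seen. *Rgs16*, a regulator of G protein signaling, had 435 CPM there and at most 47.3 CPM elsewhere. *Thrsp* and *Pklr*, genes of lipid and sugar metabolism that respond to feeding, had 1780 CPM against at most 224 CPM and 656 CPM against at most 175 CPM. *Lpin1*, a phosphatidate phosphatase, had 1050 CPM against at most 186 CPM. *Pnpla3*, another lipid gene, had 4.89 CPM against at most 1.39 CPM. Libraries of the 40-hour groups had no such set of clock genes, since the median absolute log2 difference between replicates over the core clock list was 0.257 to 0.508 there and 1.08 to 1.25 between baseline replicate 2 and its partners.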
